A study of Mus musculus with 10 samples.

Results

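Amino acid transporters of the SLC1, SLC3, SLC6, SLC7, SLC38 and SLC43 families were examined in whole testes of 10 day old mice. Members were the probe sets (groups of short oligomers that are read together as 1 value) for which the platform annotation named 1 gene with a symbol starting with Slc1a, Slc3a, Slc6a, Slc7a, Slc36a, Slc38a or Slc43a. This gave 67 probe sets for 43 genes, of 22626 probe sets on the array other than its controls. By family there were 12 probe sets for Slc1a, 2 for Slc3a, 20 for Slc6a, 19 for Slc7a, 13 for Slc38a and 1 for Slc43a, and 0 for Slc36a.

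The study compared SCARKO mice, in which Sertoli cells selectively lack the androgen response, with control mice, which the descriptions give as AMHCre. Sertoli cells are the somatic cells that line the seminiferous tubule and nurse the germ cells, and the AMH promoter that drives the Cre recombinase is active in them. Each array held RNA pooled from 1 testis of each of 3 littermates, and control and SCARKO pools of littermates formed 5 pairs. P-values of the paired fit therefore set the mean difference within pairs against its spread over pairs of pools, not over single mice. In a whole testis, fewer cells of a type and less RNA per cell cannot be told apart.

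For the 8 arrays of pairs 1 to 4 the title named 1 genotype and the description the other, while in pair 5 they matched. Groups were taken from the titles. By the titles, Rhox5, a homeobox gene of Sertoli cells that needs androgen, lay between 86.6 and 241.4 in control pools and between 7.9 and 12.7 in SCARKO pools, and it was lower in SCARKO in each of the 5 pairs, pair 5 included. With groups from the descriptions, limma called 0 probe sets on the array, and 0 transporters. That setting swaps the groups in pairs 1 to 4 but not in pair 5, so a difference shared by all pairs by title enters with opposite signs. The count therefore cannot show which labels are right.

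Amino acid carriers of the plasma membrane differ in what they move and how. The SLC1 family takes up glutamate or exchanges neutral amino acids, SLC6 members use sodium and chloride to carry neurotransmitters, glycine, taurine or creatine, and SLC38 members carry glutamine and other small neutral amino acids. SLC7 holds the cationic amino acid transporters and the light chains of exchangers that reach the cell surface only when bound to an SLC3 heavy chain. In the tubule, Sertoli cells take up and release amino acids for the germ cells.

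Signals were linear intensities, scaled alike on all arrays. Of the 67 member probe sets, 26 for 17 genes passed the filter on dim signals, which required a geometric mean signal over all 10 arrays of at least 19.3. Log2 fold changes are SCARKO minus control from limma's moderated test over all 13576 kept probe sets, with the pair as a block, and a probe set was called at a Benjamini-Hochberg adjusted p under 0.05. Among the 26 kept members, 5 were called lower and 1 higher in SCARKO, while 5.19% of all kept probe sets were called, 3.26% lower and 1.93% higher. By gene, each represented by its brightest kept probe set, 3 of 17 were lower and 1 was higher, against 5.69% of 7973 genes called, 3.52% lower and 2.17% higher. The genes that fell were Slc7a4, Slc38a5 and Slc7a6, and Slc1a6 rose.

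Slc7a4, which encodes an SLC7 protein related to the cationic amino acid transporters (gene ID 224022), had the largest change among the 26 kept members. Its probe set 1426069_s_at gave signals of 79.3, 43.2, 79.4, 73.8 and 81.2 in control pools 1 to 5. In SCARKO pools 1 to 5 the signals were 32.2, 29.5, 32.9, 34.6 and 38.1. All SCARKO pools lay under all control pools, and control pool 2 was far below the other controls. The means were 71.4 ± 15.996 and 33.5 ± 3.18 (SD, n = 5), which is 2.09-fold lower (log2 fold change -1.06, SE 0.11, limma adjusted p = 0.00044). A second probe set of the gene, 1426068_at, read 117.0, 66.7, 117.1, 109.5 and 110.0 in control pools and 69.3, 58.4, 60.4, 58.4 and 51.0 in SCARKO pools. Here the groups overlapped only through control pool 2, which lay under SCARKO pool 1. Its log2 fold change was -0.78 (SE 0.11, limma adjusted p = 0.0032), and both probe sets were lower in SCARKO in all 5 pairs. The remaining probe set of the gene, 1436776_x_at, was dim, at 10.9 to 18.9 in control and 4.5 to 11.0 in SCARKO pools.

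Slc38a5, a system N carrier of glutamine, asparagine, serine and glycine (gene ID 209837), fell as well. Control pools 1 to 5 read 204.4, 145.4, 223.6, 206.4 and 269.7, and SCARKO pools 131.2, 136.0, 140.0, 121.7 and 134.8. The groups did not overlap, and the SCARKO pools lay close together whereas the control pools were spread. Means were 209.9 ± 44.6 against 132.7 ± 6.93 (SD, n = 5), which is 1.55-fold lower (log2 fold change -0.63, SE 0.10, limma adjusted p = 0.0052). Control pool 2 was again the lowest control, and the log2 ratio was -0.10 in pair 2 against -0.64 to -1.001 in the other pairs.

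Slc7a6, the light chain of an exchanger of cationic and neutral amino acids (gene ID 330836), was lower by both of its probe sets, and by less. Probe set 1460541_at read 134.0, 143.3, 166.4, 137.5 and 141.8 in control pools and 116.5, 114.1, 119.1, 130.1 and 103.0 in SCARKO pools. Probe set 1433467_at read 144.5, 165.5, 169.7, 148.6 and 155.4 in control pools and 135.0, 132.3, 133.5, 133.4 and 120.8 in SCARKO pools. Neither showed an overlap between groups, and all 5 pairs were lower by each. The log2 fold changes were -0.31 (SE 0.07, limma adjusted p = 0.029) and -0.26 (SE 0.06, limma adjusted p = 0.037), or 1.24-fold and 1.20-fold lower. These calls were close to the threshold: that of 1460541_at ended without pair 1, 2, 3 or 5 and that of 1433467_at without pair 2, 3, 4 or 5. Over the 12 alternatives with title groups their adjusted p lay between 0.024 and 0.14 and between 0.030 and 0.14, and both calls also ended without the intensity trend of the variances.

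Slc1a6, a sodium-dependent glutamate transporter best known from cerebellar Purkinje cells (gene ID 20513), was the 1 member called higher. Control pools 1 to 5 read 29.4, 30.4, 21.6, 20.0 and 23.9, and SCARKO pools 39.7, 37.7, 32.8, 32.7 and 45.0. The groups did not overlap, all 5 pairs were higher in SCARKO, and control signals were 20.0 to 30.4, with a dim limit of 19.3. The means were 25.1 ± 4.64 and 37.6 ± 5.15 (SD, n = 5), which is 1.51-fold higher (log2 fold change 0.59, SE 0.11, limma adjusted p = 0.013). With 16 added to every signal before log2 the change was 0.39, and without pair 5 the call ended (adjusted p = 0.060, the alternatives ranging from 0.012 to 0.10).

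**Figure D1:**
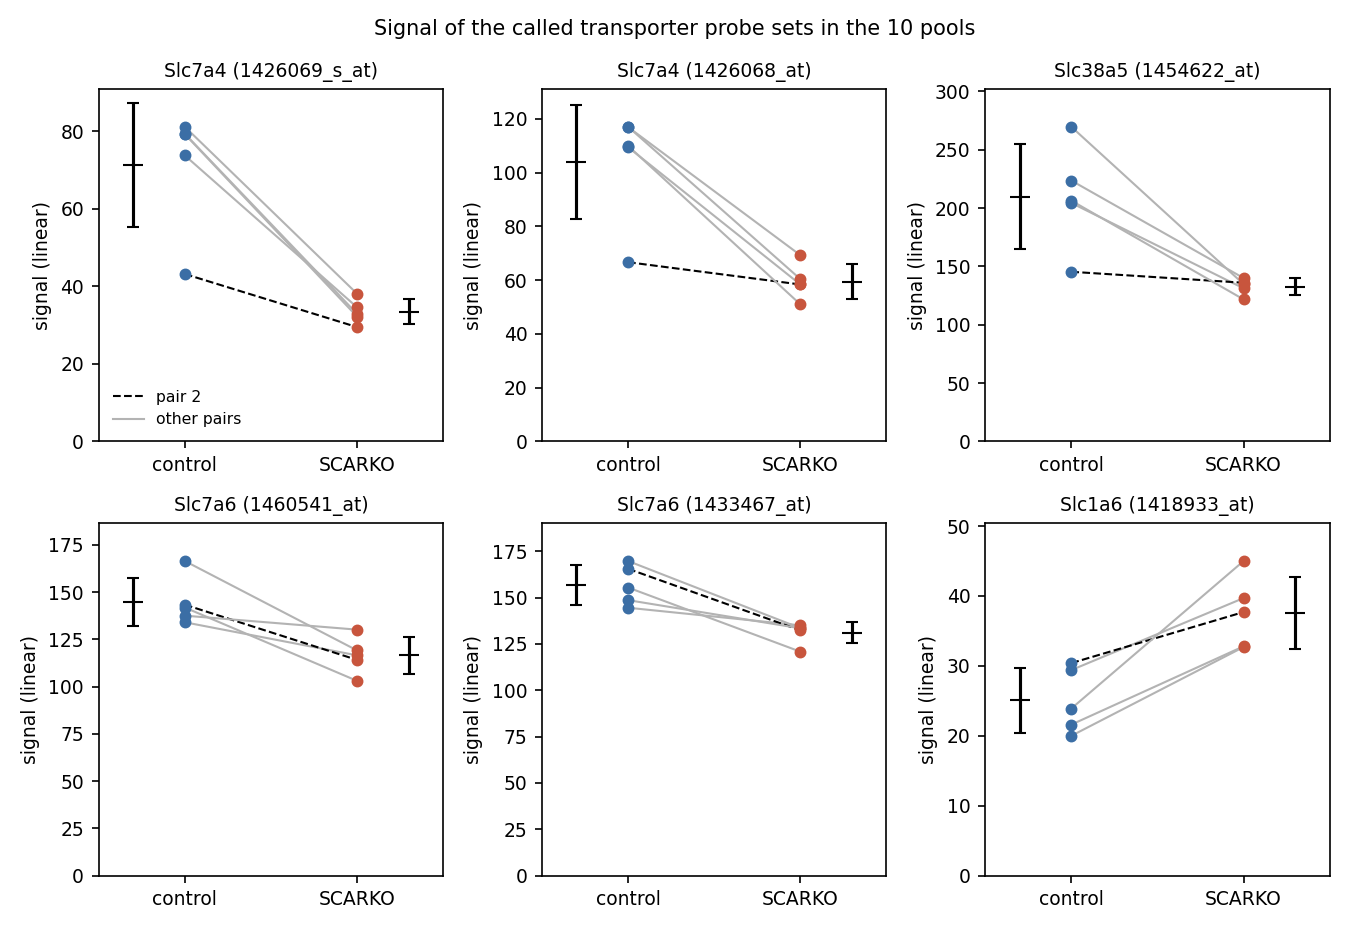
Linear signal (y axis, from 0) of the 6 called transporter probe sets in control pools (blue) and SCARKO pools (red), with grey lines joining littermate pairs, a dashed black line for pair 2, and a bar beside each group for its mean ± SD (n = 5). Both Slc7a4 probe sets and Slc38a5 fall steeply in 4 pairs and less in pair 2, Slc7a6 falls by a smaller amount, and Slc1a6 rises in every pair.

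The fall of Slc7a4 and Slc38a5 was smallest in pair 2. Within pairs 1 to 5, log2 ratios of the 1426069_s_at probe set of Slc7a4 were -1.30, -0.55, -1.27, -1.09 and -1.09, and those of 1426068_at were -0.76, -0.19, -0.96, -0.91 and -1.11. In that pair the control pool was the lowest control for all 3 probe sets. SCARKO pool 2 was within the range of the other SCARKO pools for 1426068_at and for Slc38a5, and the lowest of them, at 29.5, for 1426069_s_at. Control pool 2 was also the lowest control for Rhox5, at 86.6, and for Eppin, an androgen-dependent protease inhibitor, at 199.5 against 340.1 to 421.8 in the other controls. Over the array it was the lowest control in 54.3% of the 442 probe sets called lower and in 22.2% of all kept probe sets, and its part in the results was not tested. Without pair 2 the log2 fold changes of the Slc7a4 probe sets were -1.19 and -0.93 and that of Slc38a5 was -0.77. The transporter probe sets called lower numbered 3 without pair 3 or without pair 5, and the 1 called higher was lost without pair 5.

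**Figure D2:**
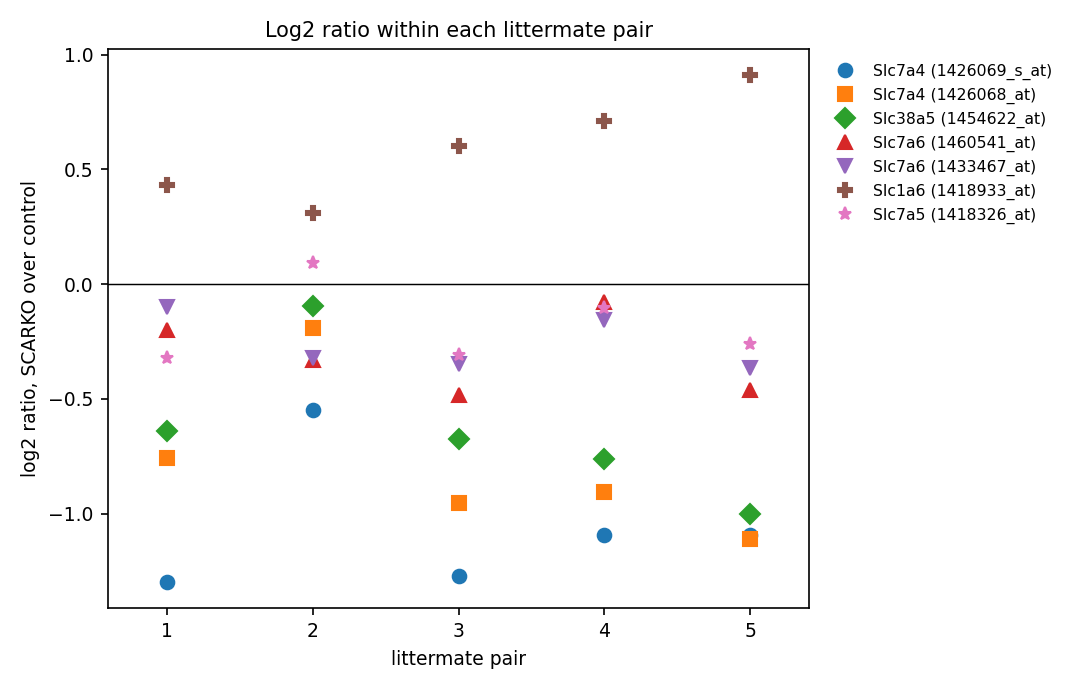
Log2 ratio of SCARKO over control signal (y axis) within each littermate pair (x axis) for the 6 called probe sets and for Slc7a5. The points of Slc7a4 and Slc38a5 lie nearest to 0 in pair 2, Slc7a6 lies below 0 and Slc1a6 above 0 in all 5 pairs, and Slc7a5 is above 0 in pair 2 only.

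Start-site regions of Slc38a5, Slc7a6 and Slc1a6 are printed to show the sequence and base composition just before the start, and that of Slc7a4 was not analysed here. RefSeq sequences (GRCm38.p6) of 250 bases before the annotated start are given 5′ to 3′, with the last 10 bases before the start in capitals, and for Slc7a6 the first of its listed starts is used.
Slc38a5, chrX:8271131-8271380, plus strand: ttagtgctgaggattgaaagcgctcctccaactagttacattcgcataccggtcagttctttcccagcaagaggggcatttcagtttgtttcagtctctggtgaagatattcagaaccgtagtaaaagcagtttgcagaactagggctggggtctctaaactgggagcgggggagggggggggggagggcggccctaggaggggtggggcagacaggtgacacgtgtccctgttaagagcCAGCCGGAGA
Slc7a6, chr8:106168604-106168853, plus strand: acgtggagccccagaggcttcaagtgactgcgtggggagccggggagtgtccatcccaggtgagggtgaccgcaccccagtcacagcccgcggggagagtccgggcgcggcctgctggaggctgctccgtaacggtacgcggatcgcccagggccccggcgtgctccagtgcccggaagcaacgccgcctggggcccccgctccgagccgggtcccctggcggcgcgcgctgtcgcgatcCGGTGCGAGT
Slc1a6, chr10:78780246-78780495, plus strand: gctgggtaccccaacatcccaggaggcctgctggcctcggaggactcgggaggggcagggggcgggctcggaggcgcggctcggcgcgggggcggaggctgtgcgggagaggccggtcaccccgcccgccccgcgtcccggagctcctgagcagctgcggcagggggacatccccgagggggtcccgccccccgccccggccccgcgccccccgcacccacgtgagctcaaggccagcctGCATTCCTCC
The base composition of these regions differed, with a GC content of 55.2% for Slc38a5, 74.0% for Slc7a6 and 78.8% for Slc1a6, against a median of 52.4% over all listed starts.

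Short motifs were looked for on both strands of windows of 300 bases, which run from 250 bases before to 50 after a start and so reach past the printed sequence. All listed starts were searched, the other start of Slc7a6 included. The letters TGATGNAA, the core of the amino acid response element bound by ATF4, occurred in 3.97% of all 32851 windows. They occurred in 4 of 47 windows of member genes, which belong to 3 of 28 genes, Slc7a11, Slc1a4 and Slc7a7. The steroid receptor half-site AGAACA, which is part of the full palindrome of 15 bases with 3 free bases in its centre, occurred in 19.0% of all windows and in 10 of the 47 member windows (6 of 28 genes), and the full palindrome in 3 of all windows and in 0 member windows. In the windows of Slc38a5, Slc7a6 and Slc1a6, 0 of these motifs were found, which says only that the letters are not in these windows.

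The heavy chain Slc3a2 and the other kept light chains, Slc7a5 and Slc7a8, did not pass. Slc3a2, the heavy chain also known as CD98 that carries the SLC7 light chains to the cell surface, read 502.6, 449.5, 513.2, 513.2 and 466.2 in control pools and 457.2, 477.0, 466.5, 501.0 and 472.6 in SCARKO pools. The SCARKO signals lay within the range of the control signals, with a log2 fold change of -0.04 (95% interval -0.14 to 0.06, limma adjusted p = 0.67). Slc7a5, the light chain LAT1 for large neutral amino acids, read 462.5, 311.4, 488.7, 371.0 and 443.9 in control and 370.1, 332.0, 394.7, 344.8 and 370.7 in SCARKO pools. It was lower in 4 of 5 pairs, and control pool 2 was under every SCARKO pool. With all pairs its log2 fold change was -0.18 (95% interval -0.32 to -0.05, limma adjusted p = 0.12), and without pair 2 it was -0.25 and called (adjusted p = 0.022, the alternatives ranging from 0.022 to 0.43). Slc7a8, the light chain LAT2, had a log2 fold change of -0.11 (95% interval -0.37 to 0.15, limma adjusted p = 0.64). All 6 kept SLC7 probe sets, which belong to 4 genes, had a negative log2 fold change, as had 6177 of all 13576 kept probe sets. Whether Slc7a6 changed by more than Slc3a2 was not tested.

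In the SLC38 family, Slc38a5 was the 1 called member among 10 kept probe sets of 5 genes. Slc38a2, the system A carrier SNAT2 known to be induced when amino acids are scarce, read 460.5, 492.8, 560.7, 494.5 and 500.1 in control and 438.3, 485.4, 478.7, 474.3 and 441.9 in SCARKO pools. It was lower in all 5 pairs by a small amount, with a log2 fold change of -0.11 (95% interval -0.21 to -0.01) that did not pass (limma adjusted p = 0.18). Slc38a1, the related system A carrier SNAT1, and Slc38a4, the carrier SNAT4, had log2 fold changes of 0.15 (95% interval -0.13 to 0.44) and 0.19 (95% interval -0.15 to 0.52), neither past the threshold. For Slc38a10, a less studied member, 6 of 7 probe sets were kept, and their log2 fold changes ran from -0.26 to 0.29 with adjusted p of at least 0.31. The 3 of them whose mean signal was above 100 in both groups had log2 fold changes of -0.03, 0.00 and 0.03.

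Slc1a5, the neutral amino acid exchanger ASCT2 that carries glutamine, had values in the same direction as Slc1a6. Control pools read 37.2, 41.8, 37.9, 44.2 and 47.5, and SCARKO pools 62.7, 57.2, 51.3, 47.9 and 49.4. The highest control pool, at 47.5, lay just under the lowest SCARKO pool, at 47.9, so the groups did not overlap, and all 5 pairs were higher in SCARKO. The log2 fold change of 0.36 (95% interval 0.12 to 0.60) did not pass (limma adjusted p = 0.083), nor did it under the 11 alternatives with title groups that tested it, where adjusted p lay between 0.073 and 0.24. In all, 6 of 26 kept members showed no overlap between groups, 4 lower and 2 higher, against 4.52% of all kept probe sets, and 9 of 26 moved the same way in all 5 pairs, against 18.5%. By gene, 4 of 17 showed no overlap, against 5.26%, and 7 of 17 moved the same way in all pairs, against 19.7%. The same pools chose the calls and these counts, so the counts add no independent evidence.

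The SLC6 carriers held 0 calls among 6 kept probe sets of 4 genes by limma, with 2 at an unadjusted p under 0.05. Slc6a6, the taurine transporter, read 39.3, 23.9, 30.3, 31.8 and 32.4 in control and 43.9, 29.2, 35.5, 32.7 and 43.7 in SCARKO pools. It was higher in all 5 pairs although the groups overlapped (log2 fold change 0.23, 95% interval 0.01 to 0.45, limma adjusted p = 0.21). These values are of 1421346_a_at. The other probe sets of Slc6a6 were dim, at 1.2 to 10.8 (1420148_at) and 0.8 to 9.4 (1449751_at) over all pools. Slc6a9, the glycine transporter GlyT1, had log2 fold changes of 0.04 for 1417636_at and 0.35 for 1431812_a_at (limma adjusted p = 0.80 and 0.21). Slc6a8, the creatine transporter, had 0.03 for 1417116_at and -0.25 for 1448596_at (limma adjusted p = 0.92 and 0.29), so its probe sets differed in sign. Slc6a14, a broad carrier of neutral and cationic amino acids, varied widely within groups, from 8.7 to 37.8 in control and from 12.0 to 28.6 in SCARKO pools, with a log2 fold change of -0.18 (95% interval -0.63 to 0.26). The 1 member of the SLC43 family, Slc43a3, which is known to carry purine nucleobases rather than amino acids, had a log2 fold change of 0.28 (95% interval 0.00 to 0.55, limma adjusted p = 0.24) and was higher in 4 of 5 pairs. Counting all families, 12 of 26 kept members had an unadjusted p under 0.05, against 20.9% of all kept probe sets, and 9 of 17 genes did, against 21.7% of all genes.

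**Figure D3:**
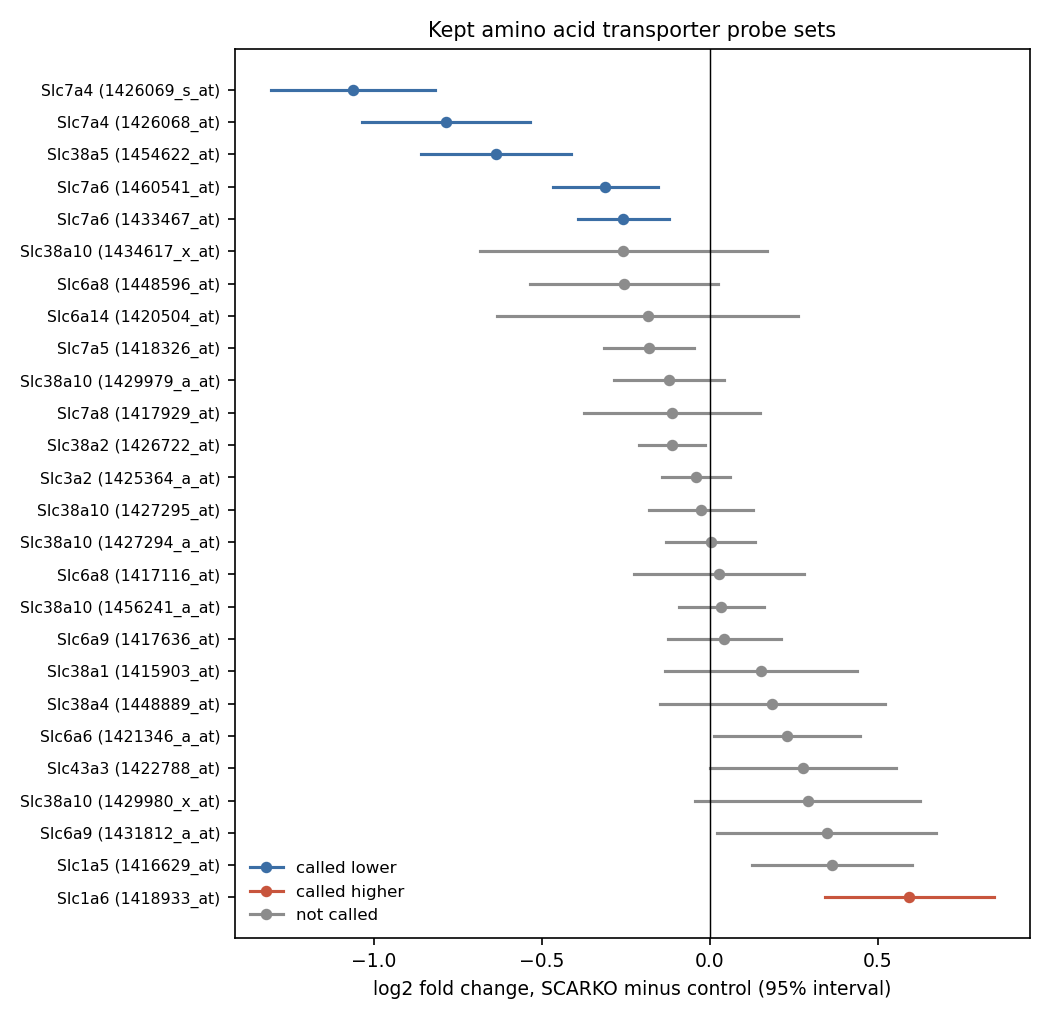
Log2 fold change, SCARKO minus control, with its 95% interval (x axis) for each of the 26 kept amino acid transporter probe sets (y axis), ordered by size, with called members in colour and the others in grey. The 5 members called lower belong to Slc7a4, Slc38a5 and Slc7a6, and the probe sets of Slc38a10 lie on both sides of 0.

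The other 41 member probe sets, for 31 genes, were dim. For 26 genes no probe set was kept: Slc1a1, Slc1a2, Slc1a3, Slc1a4, Slc3a1, Slc6a2, Slc6a3, Slc6a4, Slc6a5, Slc6a12, Slc6a13, Slc6a15, Slc6a17, Slc6a18, Slc6a20a, Slc6a20b, Slc7a1, Slc7a2, Slc7a3, Slc7a7, Slc7a9, Slc7a10, Slc7a11, Slc7a12, Slc7a13 and Slc38a3. They include the noradrenaline, dopamine and serotonin carriers Slc6a2, Slc6a3 and Slc6a4 and the kidney partners Slc3a1 and Slc7a9. No dim member had a signal above 24.4 in any pool, and a dim signal does not show that a transcript is absent. Close to the limit of 19.3, Slc1a4 (17.6) and Slc7a2 (16.9) were just outside and Slc38a4 (19.5) and Slc6a14 (21.3) just inside, as geometric mean signals over the 10 pools. Fitted without the filter, limma called 0 of the 41, with 3 at an unadjusted p under 0.05 and a lowest adjusted p of 0.24, and 0 of the 26 kept members either.

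Enzymes that make and break down amino acids were then read from the same fit. Of 46 listed genes, 38 were on the array and 30 were kept, the others being dim. Of these 30, 7 fell and 0 rose, against 3.52% of all genes called lower. In 23 the log2 fold change was below 0 (median -0.09, against 0.02 over all genes), as it was in 3591 of all 7973 genes. Cdo1, which oxidizes cysteine on the way to taurine, fell from 91.6 ± 16.8 to 42.9 ± 6.34 (SD, n = 5), by 2.13-fold (log2 fold change -1.09, SE 0.10, limma adjusted p = 0.00018). Gpt2, the mitochondrial alanine aminotransferase, fell from 113.0 ± 21.3 to 69.2 ± 12.6 (log2 fold change -0.71, SE 0.09, limma adjusted p = 0.0012). The branched-chain aminotransferase gene Bcat2 fell by 0.58 on the log2 scale, the GABA transaminase gene Abat by 0.41, the folate enzyme gene Mthfd2 by 0.28, the ornithine decarboxylase gene Odc1 by 0.22 and Phgdh, the first enzyme of serine synthesis, by 0.20. All 7 were lower in each pair, and limma adjusted p for the last 5 lay between 0.0074 and 0.045.

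Support for these enzymes was uneven. Both other kept probe sets of Gpt2 were called lower (-0.72 and -0.58) and so was that of Mthfd2 (-0.44), whereas those of Odc1 (-0.07 and -0.17) and of Phgdh (-0.14 to -0.11) were not. Cdo1 was called under all alternatives that kept the title groups, and Gpt2 and Bcat2 with any 1 pair left out. Without the filter the calls of Gpt2 (limma adjusted p = 0.066) and Bcat2 (0.14) ended. That of Bcat2 also ended without the intensity trend (0.053). The calls of Abat and Mthfd2 ended without pair 1, 3 or 5, that of Odc1 without pair 2, 3, 4 or 5, and that of Phgdh without pair 1, 3, 4 or 5. Dropping the block (adjusted p = 0.11) or centring on the median (0.058) ended the Phgdh call too, the alternatives ranging from 0.039 to 0.18. The number of enzymes called lower was 4 without pair 1, 3 without pair 3 and 4 without pair 5. Psat1, which acts after Phgdh in serine synthesis, had a log2 fold change of -0.21 (limma adjusted p = 0.053), and Glul, the glutamine synthetase, one of -0.12 (limma adjusted p = 0.14).

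**Figure D4:**
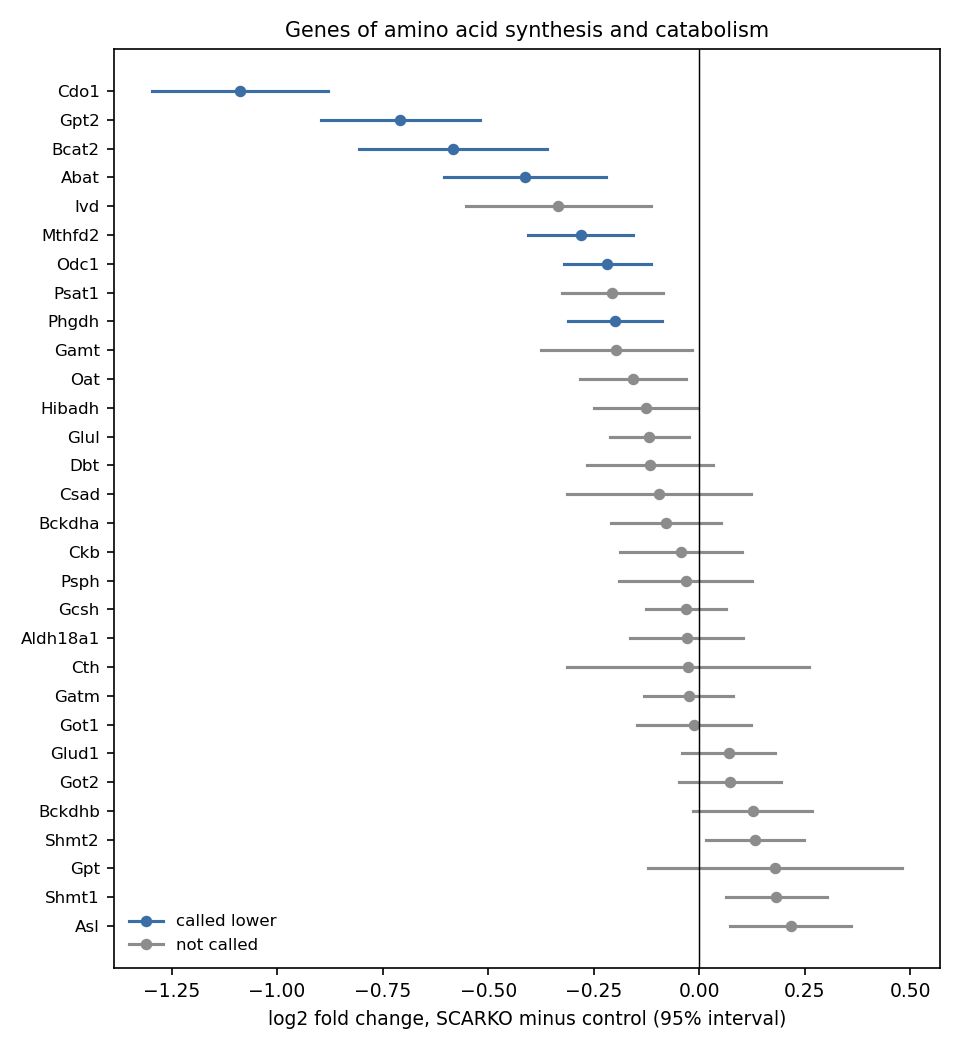
Log2 fold change, SCARKO minus control, with its 95% interval (x axis) for the 30 kept genes of amino acid synthesis and catabolism (y axis), each by its brightest kept probe set, with called genes in blue. The 7 called genes lie to the left of 0, led by Cdo1 and Gpt2.

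Genes that respond to a shortage of amino acids included 1 call among 25 (4.0%), against 5.69% of all genes. Of the 25, 17 had a positive log2 fold change (median 0.05), as had 4382 of all 7973 genes. Ddit4, an inhibitor of mTORC1 signalling, fell by 0.33 on the log2 scale (SE 0.08, limma adjusted p = 0.041), a call that ended without pair 1, 3, 4 or 5 and without the block. The transcription factor gene Atf4 had a log2 fold change of 0.03 (95% interval -0.07 to 0.14) and Asns, the asparagine synthetase, one of -0.04 (95% interval -0.20 to 0.11), neither past the threshold. Of 24 genes of amino acid sensing and mTORC1 signalling, 0 were called by limma, 5 had an unadjusted p under 0.05, against 21.7% of all genes, and the median was 0.00033. Deptor, an mTOR-binding inhibitor, had a limma adjusted p of 0.0505 for a change of 0.35 on the log2 scale, and it was called with 16 added before log2 (0.0499) and after median centring (0.048), the alternatives ranging from 0.048 to 0.19. Of 9 other amino acid and peptide carriers 0 were called by limma, and 3 had an unadjusted p under 0.05, again against 21.7%. The smallest p among them was that of Slc25a15, the mitochondrial ornithine carrier (log2 fold change 0.26, limma adjusted p = 0.14).

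Markers of the testicular cell types were read from the same fit, in which 3.52% of all genes were called lower, 2.17% higher, and 21.7% had an unadjusted p under 0.05. All 18 Sertoli cell markers on the array were kept, with summed signals of 11283 to 11897 in control and 11065 to 11475 in SCARKO pools, and 3 fell (Cldn11, Nr0b1 and Gata1) and 3 rose (Kitl, Fshr and Gdnf), with 10 of the 18 at an unadjusted p under 0.05. Of 11 kept markers of meiotic prophase, 3 fell (Stag3, Hspa2 and Tex15), with sums of 2320 to 3389 in control and 1960 to 2598 in SCARKO pools. All 11 had a negative log2 fold change (median -0.24), and 8 had an unadjusted p under 0.05. Limma called 0 of 14 markers of spermatogonia and other germ cells, 0 of 6 of Leydig cells, 0 of 9 of peritubular myoid cells, 0 of 11 of macrophages and 0 of 8 of endothelium, with 3, 2, 3, 2 and 1 at an unadjusted p under 0.05. All 4 erythroid markers and all 6 of epididymis and fat on the array were dim. The ratio of 3′ to 5′ signal was 0.61 to 0.64 in control and 0.62 to 0.66 in SCARKO pools for Gapdh, and 1.21 to 1.30 and 1.16 to 1.32 for beta-actin (exact sign-flip p = 0.25 and 0.75, two-sided, the smallest possible being 0.0625). The part of cell type shares in the transporter results was not tested.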

How the data were processed

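The authors deposited Affymetrix signal intensities on a linear scale, 1 value per probe set, for 22690 probe sets on 10 arrays. MAS5 was named for 8 arrays in the submitters' processing notes and no tool for pair 5. Its version is not given in the sources here. The mean after trimming 2% at each end was 100.03 on every array, median signals were 36.4 to 37.6, and between 6.73% and 7.99% of values lay under 1. Arrays carry no read depth. Their number, 5 per group, limits the precision. The targeted gene is not reported here.

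The 64 array controls were left out. Values under 1 were set to 1 before log2, the dimmest 40% by mean log2 over all arrays (under 4.27) were removed, and limma 3.58.1 in R 4.3.3 was fitted with the pair as a block, variances moderated with an intensity trend, and a two-sided test. The code was tested on simulated data. Symbols came from the platform annotation, updated by gene identifier to GRCm38.p6, with 20380 probe sets naming 1 gene, 691 several and 1555 none, and no symbol entering or leaving the families. By the naming rule, members with an adjusted or unadjusted p under 0.05, the brightest 3 genes per family with their other probe sets, and the called genes of each list (otherwise that with the smallest p) are named, with Rhox5 and Eppin as the check of the titles. Other members were added to account for all of them. Psat1, Glul, Atf4 and Asns, and the called cell type markers, were named after their values were seen. The members, lists and tests were chosen with earlier results of these data known. Eif4ebp1 and Sesn2 stand in 2 lists.

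The labels' protocols state that pools of littermates were made as pairs. Which control pool and which SCARKO pool form a pair was taken from the numbers in the titles. Same-numbered pools deviated together from their group means, with correlations over probe sets of 0.28, 0.19, 0.19, 0.11 and 0.39 for pairs 1 to 5, pair 4 equalling its highest correlation with another number (0.11). Alternatives were no block, no filter, the lowest 60% left out, 16 added before log2, quantile normalization, median centring, no trend, each pair left out, and groups from the descriptions.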

Additional observations from a re-analysis of the deposited data

Results flagged for a closer look

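In 8 of 76 groups of 5 pools examined, the highest or lowest pool stood apart from the others by a gap that was over 0.71 of the group's range. Chance flags about 1 in 20 groups. Control pool 2 was apart in both called probe sets of Slc7a4, at 43.2 against a next control of 73.8 for 1426069_s_at and at 66.7 against 109.5 for 1426068_at. SCARKO pool 5 was the low pool for Slc38a1 (19.5 against 31.8), for the 1456241_a_at probe set of Slc38a10 (236.6 against 264.6) and for 1433467_at of Slc7a6 (120.8 against 132.3). The high pools were control pool 3 for 1460541_at of Slc7a6 (166.4 against 143.3), control pool 2 for Slc43a3 (31.8 against 28.4) and SCARKO pool 2 for Phgdh (567.5 against 500.7).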

How the results depend on the processing

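Of 298 alternative values with title groups for the 26 kept members, 272 kept their direction and their side of the threshold, 17 lost a call, 1 gained one and 8 changed sign, all 8 with 1 pair left out and from changes that were not called. Their ranges over the fits without 1 pair were, for Slc38a10 (1427294_a_at from -0.039 to 0.034; 1427295_at from -0.090 to 0.020; 1456241_a_at from -0.022 to 0.069), Slc6a14 (from -0.40 to 0.014), Slc6a8 (1417116_at from -0.094 to 0.085) and Slc6a9 (1417636_at from -0.003097 to 0.10). Without the littermate block (no replicate block) the same 6 members were called, and the array total was 404 in place of 704. The block changed no member's call, and without it the calls of Phgdh and Ddit4 ended.

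Without the filter on dim probe sets, 38 were called on the array, 0 transporters lower and 0 higher (adjusted p of the 6 from 0.056 to 0.14), 0 deprivation genes and 1 enzyme. Without the variance trend these were 321 on the array, 3 transporters lower, 0 deprivation genes and 2 enzymes. With the lowest 60% left out Slc1a6 was not tested, so 0 were higher. The groups of the descriptions gave 0 calls throughout, and no block gave 0 deprivation genes. With 16 added before log2 or median centring, 1 mTORC1 gene was higher. Leaving out 1 pair gave 304 to 743 probe sets on the array, 3 to 4 transporters lower and 0 to 1 higher, 3 to 7 enzymes lower and 0 to 1 higher, and 0 to 1 deprivation genes lower. The cause of each was not tested. Of the kept members, Slc38a4 and Slc6a14 had geometric mean signals close to the dim limit of 19.3 (19.5 and 21.3).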

Other observations

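Other solute carriers on the array were read from the same fit. Of all kept probe sets, 3.26% were called lower and 1.93% higher. Of 51 kept probe sets of mitochondrial SLC25 carriers, 10 were called lower and 0 higher, with a median log2 fold change of -0.08. Of 130 kept probe sets of all remaining solute carrier families, 9 were called lower and 6 higher, with a median of -0.04. Over all kept probe sets the median was 0.01. Whether the amino acid transporters differ from these carriers was not tested.

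Among the dim members fitted without the filter, the 1436776_x_at probe set of Slc7a4 had a log2 fold change of -0.97, and its brighter probe sets had -1.06 and -0.78. For Slc1a4, a neutral amino acid exchanger, 1423550_at had 0.90, from signals of 4.6 to 11.7 in control and 9.2 to 17.2 in SCARKO pools. The brighter probe sets of Slc1a4, 1423549_at and 1456003_a_at, which were also dim, had 0.03 and -0.12. Neither 1436776_x_at of Slc7a4 nor 1423550_at of Slc1a4 passed (limma adjusted p = 0.24 and 0.26). The 1417392_a_at probe set of Slc7a7 had a log2 fold change of -0.30 and was lower in all 5 pairs. It did not pass either (limma adjusted p = 0.32).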
